A study of Homo sapiens with 9 samples.

Results

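Dense clusters of chromatin regions of Jurkat T cells that had a peak in at least 1 of 3 lists but none in the list labelled NS DMSO (non-stimulated cells with vehicle) were described. The members were chosen by measured peak presence: the peaks of 4 lists were merged into 40703 regions on chromosomes 1 to 22, X and Y, and the 21783 regions without a peak in the list labelled NS DMSO were kept. Regions whose mid-points lay at most 12.5 kb from the next were chained, and chains of at least 5 regions were called clusters. This gave 530 regions in 92 clusters, which was 2.43% of those lacking an NS peak. The remaining 21253 regions lay in shorter chains, and 14052 of them had no other such region within the chain distance. As the lists themselves chose the members, their presence in a list, their score and their spacing are given as a description without a test.

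The data are FAIRE-seq of Jurkat clone E6-1, a line grown from a single human T-cell leukaemia and therefore a single clone as a model of T-cell activation. Formaldehyde-assisted isolation of regulatory elements (FAIRE) recovers DNA that is not crosslinked to nucleosomes, and a broad peak marks a stretch enriched over total input DNA. All cells were pre-treated with DMSO as vehicle or with 15 µM rottlerin, an inhibitor of protein kinase C signalling. By the labels, the 4 lists analysed are NS DMSO (no stimulus), SW DMSO (4 h of phorbol 12-myristate 13-acetate (PMA) with ionomycin, then stimulus withdrawal and 1 day of rest), NS rottlerin (no stimulus) and SW rottlerin (stimulated, washed and rested as above). The stimulation time is that of the labels, and the study's methods give a shorter one. The study's methods describe peak calling in the DMSO samples only, so the labels of the lists and the methods could not be reconciled. The 4 lists merged to 40731 regions before those on other contigs were left out. The study's methods report the same number for the pooled regions of its 4 DMSO samples (non-stimulated, stimulated, withdrawn and re-stimulated). By this match, the lists with rottlerin in their label probably come from DMSO samples, and their labels are then wrong. The list names are therefore used here as labels, and no difference between lists is read as an effect of rottlerin or of stimulus withdrawal. Each list came from 1 library, so there is no replicate error and no test, and 95% Wilson intervals cover counting error only. The lists held between 18977 peaks (NS DMSO) and 30409 peaks (SW rottlerin), and read depth is unknown from peak lists. Of 6 T-cell marker genes (CD3D, CD3E, CD3G, CD247, CD2 and LCK), between 3 and 4 had a peak within 1 kb of the transcription start site (TSS) in each list, whereas 0 of 5 B-cell and 0 of 5 myeloid markers did. Among 5 markers of other tissues, 1 had such a peak in 3 lists and 2 had it in the SW DMSO list.

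Inducible genes of lymphocytes are often controlled by several distal elements that lie close together, and a stretch with many open elements is commonly called an enhancer cluster. PMA and ionomycin replace the T-cell receptor signal, and activate AP1 (FOS and JUN proteins) through protein kinase C and NFAT through calcium and calcineurin. NFκB is activated by the same pathway, while ETS, RUNX and GATA proteins are present in T cells before stimulation.

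The sequences of 8 cluster regions are given first because they show the sites that the motif counts refer to. They were chosen after their values were seen, from regions with high scores or from loci described in most detail. Not all had the highest score of their cluster: those at TNFSF14 and CRTAM scored 137 and 142, against 150 and 158. All 8 hold a marked site and do not stand for the cluster regions, of which 25.3% had an AP1 site and 35.7% an NFAT site. Each sequence is the central 300 bp of the region on the plus strand of GRCh37 (hg19), cut to the longest stretch outside annotated UTRs. Capitals mark AP1 sites (TGANTCA), NFAT sites (TGGAAA or its reverse complement TTTCCA) and sites of the NFκB consensus, on either strand. A match is a description of letters and not of binding.
LTA/TNF upstream element, chr6:31536354-31536653: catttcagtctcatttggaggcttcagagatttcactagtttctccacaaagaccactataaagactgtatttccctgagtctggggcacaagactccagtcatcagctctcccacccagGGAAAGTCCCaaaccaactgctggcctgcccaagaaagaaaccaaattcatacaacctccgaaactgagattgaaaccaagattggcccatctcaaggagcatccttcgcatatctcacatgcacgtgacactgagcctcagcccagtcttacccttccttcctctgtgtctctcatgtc
TNF promoter, chr6:31543105-31543341: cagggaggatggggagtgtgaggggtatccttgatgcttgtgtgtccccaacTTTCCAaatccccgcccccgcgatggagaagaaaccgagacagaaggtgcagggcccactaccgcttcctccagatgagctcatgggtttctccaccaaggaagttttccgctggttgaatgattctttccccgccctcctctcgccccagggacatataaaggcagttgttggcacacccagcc
upstream of TNFSF14, chr19:6674882-6675181: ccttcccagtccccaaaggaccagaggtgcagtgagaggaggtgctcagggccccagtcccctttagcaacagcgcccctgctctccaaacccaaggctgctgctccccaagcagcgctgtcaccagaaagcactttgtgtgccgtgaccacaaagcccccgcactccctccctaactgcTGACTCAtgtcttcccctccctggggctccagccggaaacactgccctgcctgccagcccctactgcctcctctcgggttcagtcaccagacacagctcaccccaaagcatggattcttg
CRTAM intron, chr11:122720938-122721237: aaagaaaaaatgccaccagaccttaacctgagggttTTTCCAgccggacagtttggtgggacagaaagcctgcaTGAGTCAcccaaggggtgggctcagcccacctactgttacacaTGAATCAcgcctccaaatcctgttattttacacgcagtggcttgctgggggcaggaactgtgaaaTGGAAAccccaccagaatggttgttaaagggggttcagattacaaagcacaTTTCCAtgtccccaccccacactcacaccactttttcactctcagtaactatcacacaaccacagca
upstream of TBX21, chr17:45798568-45798867: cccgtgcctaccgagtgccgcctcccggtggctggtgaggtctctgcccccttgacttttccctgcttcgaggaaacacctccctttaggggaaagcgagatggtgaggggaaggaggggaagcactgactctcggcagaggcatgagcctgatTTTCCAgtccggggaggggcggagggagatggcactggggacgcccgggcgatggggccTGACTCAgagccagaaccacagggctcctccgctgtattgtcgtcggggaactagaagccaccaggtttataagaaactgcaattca
chromosome 3 lncRNA intron, chr3:105895611-105895910: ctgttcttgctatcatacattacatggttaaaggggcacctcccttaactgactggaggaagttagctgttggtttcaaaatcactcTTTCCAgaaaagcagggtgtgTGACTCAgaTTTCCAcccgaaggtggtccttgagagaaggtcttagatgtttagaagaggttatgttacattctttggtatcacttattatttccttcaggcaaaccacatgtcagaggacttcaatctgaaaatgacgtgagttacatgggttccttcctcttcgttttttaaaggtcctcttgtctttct
NFKB2 intron, chr10:104155268-104155449: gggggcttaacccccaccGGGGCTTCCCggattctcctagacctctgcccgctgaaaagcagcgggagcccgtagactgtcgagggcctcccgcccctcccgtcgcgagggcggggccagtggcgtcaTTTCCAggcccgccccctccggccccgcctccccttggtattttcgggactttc
upstream of CD40LG, chrX:135702077-135702376: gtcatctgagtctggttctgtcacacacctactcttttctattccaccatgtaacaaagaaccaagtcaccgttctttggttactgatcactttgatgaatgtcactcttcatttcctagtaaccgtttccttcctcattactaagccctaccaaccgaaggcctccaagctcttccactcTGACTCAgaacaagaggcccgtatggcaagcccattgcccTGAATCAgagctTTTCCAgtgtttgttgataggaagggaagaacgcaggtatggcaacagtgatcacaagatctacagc

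The CRTAM intron and the chromosome 3 region held AP1 and NFAT sites together. The CRTAM window had 2 AP1 and 3 NFAT sites, and the chromosome 3 window had 1 AP1 site and 2 NFAT sites within a short stretch. The window upstream of TBX21 had 1 site of each. The TNF promoter window had 1 NFAT site and the LTA/TNF element 1 NFκB site, while neither held an AP1 site. The window of the CD40LG locus had 2 AP1 sites and 1 NFAT site. The printed NFKB2 stretch of 182 bases had 1 NFκB site and 1 NFAT site, and its full 300 bp window had 2 NFκB sites.

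Of the 92 clusters, 52 had 5 regions, 21 had 6, 14 had 7, 2 had 8, 2 had 9 and 1 had 12. Just below the threshold lay 165 chains of 4 regions, with 660 regions in all, against 260 regions in the chains of 5. The widest gap inside a cluster was 12.4 kb and the narrowest gap that ended a cluster was 12.7 kb. Clusters spanned a median of 23.6 kb, from 6.82 kb at IRF2BP2, a transcriptional corepressor gene, to 57.4 kb in the long non-coding RNA gene CASC15. Together they spanned 2.38 Mb, of which the regions covered 218 kb, and neighbouring mid-points lay a median of 4.66 kb apart. The clusters were on every chromosome but Y. Chromosome 6 had the most, with 14 clusters and 87 regions, which was 16.4% of all cluster regions against 6.76% of all regions without an NS peak. By share of their own regions without an NS peak, the highest values were those of chromosomes 21 (6.40%), 6 (5.91%) and 11 (4.38%), against 2.43% over all chromosomes.

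**Figure D1:**
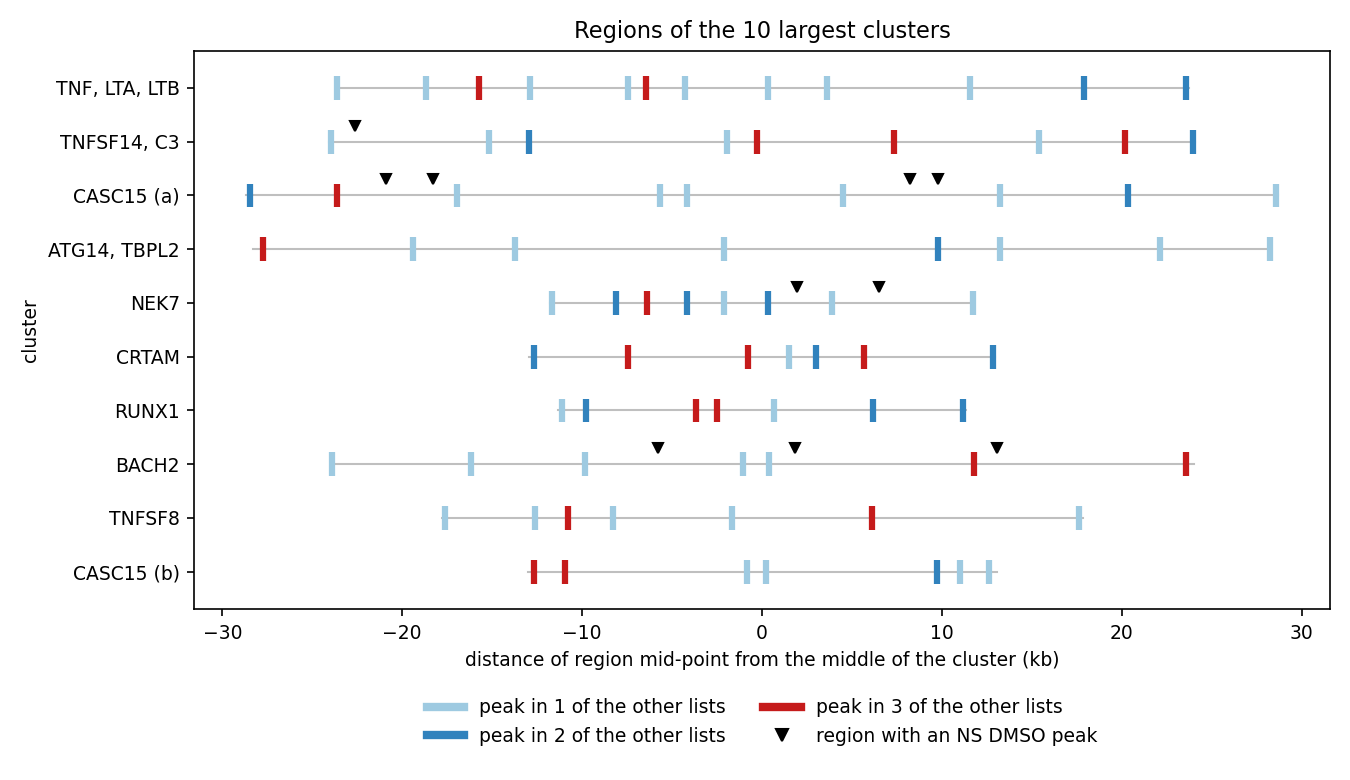
Position of each region in the 10 largest clusters, as distance of the region mid-point from the middle of the cluster in kb, with colour for the number of lists other than NS DMSO that have a peak (1, 2 or 3) and black triangles for regions with an NS DMSO peak. The TNF, LTA and LTB cluster has 12 regions and no NS region, whereas the longer CASC15 cluster has 9 regions and 4 NS regions between them.

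Which lists supplied the regions? Of the 530 cluster regions, 454 (85.7%, 95% interval 82.4 to 88.4%) had a peak in the SW rottlerin list, 246 (46.4%, 42.2 to 50.7%) in the NS rottlerin list and 174 (32.8%, 29.0 to 36.9%) in the SW DMSO list. Over all 21783 regions lacking an NS peak the shares were 74.8%, 46.2% and 34.4%. All 92 clusters had at least 1 region in the SW rottlerin list, and 42 had every region in it. This list was the longest, and it alone had the most regions in 73 clusters, against 5 clusters for NS rottlerin and 1 for SW DMSO, with 13 ties. Regions came from all 3 lists in 74 clusters and from 2 lists in 16. The 2 clusters with regions from the SW rottlerin list alone lay at FBXO32, a ubiquitin ligase component, and at a lncRNA on chromosome 1 whose nearest coding TSS, that of TOMM20, was 165 kb away.

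The number of clusters rested on the SW rottlerin list. Without it, 131 regions in 24 clusters remained by the same rule, and 22 of the 92 clusters overlapped one of these. With the same number of peaks in each list (the 18977 highest-scoring), 105 regions formed 20 clusters, and 20 of the 92 clusters overlapped one of these. The clusters found both ways numbered 10: CRTAM, RUNX1, TBKBP1 and TBX21, TBC1D7 and GFOD1, PPP1R9B, PMAIP1, HIVEP3, SNX9, EGLN3, and the cluster upstream of CD44. The TNF and TNFSF14 clusters were found with equal peak numbers, and each then had 5 regions, but not without the SW rottlerin list. The part of list length in the count was not tested further.

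**Figure D2:**
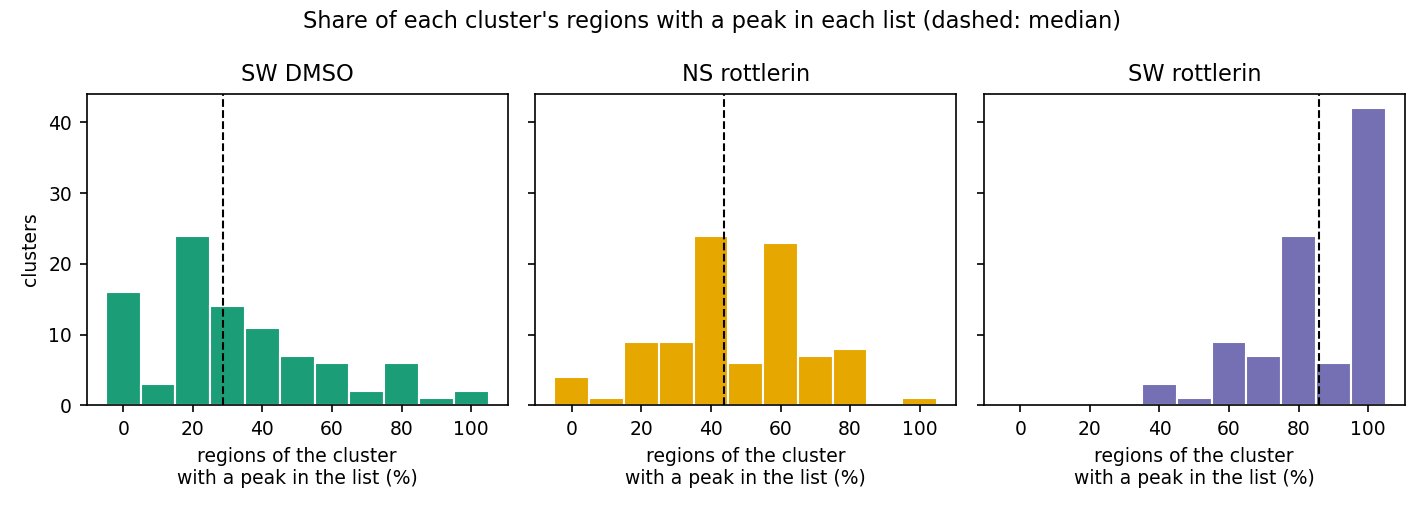
Histograms over the 92 clusters of the percentage of a cluster's regions with a peak in the SW DMSO, NS rottlerin and SW rottlerin lists, with the median over clusters as a dashed line. The tallest bar for SW rottlerin holds the 42 clusters with every region in that list, while 16 clusters have no region in the SW DMSO list.

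Peaks in all 3 other lists were found for 92 cluster regions (17.4%, 14.4 to 20.8%), against 13.2% of all regions without an NS peak. In chains of 3 and 4 regions the share was 16.5% and 15.2%, both inside that interval. The interval is too narrow, as regions of a cluster share a locus. Of the cluster regions, 160 had a peak in 2 lists and 278 in 1 list, of which 206 were in SW rottlerin, 53 in NS rottlerin and 19 in SW DMSO. The score is 10 times the −log10 q-value of the peak, and a region takes the highest score over its peaks in all lists. Median highest scores were 29.0, 55.5 and 86.5 for regions in 1, 2 and 3 lists. Regions in more lists take the highest of more values, so this rise is at least in part built in. Over all cluster regions the median highest score was 43, with a range from 10 to 254, against a median of 40 over all regions without an NS peak. Cluster regions were a median of 298 bp wide, against 248 bp. Chains of 3 and 4 regions had a median highest score of 44 each and median widths of 268 bp and 278.5 bp. Fold enrichment over input, where a peak was called, had medians of 3.63 (SW DMSO), 3.71 (NS rottlerin) and 3.74 (SW rottlerin) in the clusters and 3.73, 3.72 and 3.73 over all regions without an NS peak. Of the clusters, 34 had no region in all 3 lists, 32 had 1 and 26 had 2 or more.

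The largest cluster covered the TNF locus at chr6:31519239-31566647 (GRCh37), with 12 regions over 47.4 kb and no NS region between them. TNF and LTA encode the inflammatory cytokines tumour necrosis factor and lymphotoxin alpha, LTB encodes the membrane partner of the latter, and the span also overlapped NFKBIL1, LST1 and NCR3. By list, 11 regions had a peak in SW rottlerin, 5 in NS rottlerin and 2 in SW DMSO. The highest score (181) belonged to the region at chr6:31536274-31536733, 3.33 kb upstream of the LTA TSS and in an intron of an overlapping lncRNA. Its fold enrichment was 4.08 in SW DMSO, 4.88 in NS rottlerin and 6.45 in SW rottlerin. The only other region present in all 3 lists, at chr6:31526438-31528000 between genes, had folds of 4.01, 5.70 and 4.96 in the same order. The TNF promoter region, 87 bp upstream of the TSS by its mid-point, was called in the SW rottlerin list only, with a fold of 5.66. The NCR3 promoter region, which belongs to an activating receptor of natural killer cells, had folds of 3.55 in NS rottlerin and 4.10 in SW rottlerin. Of the 12 regions, 5 had an NFAT site, 3 a RUNX site, 1 an AP1 site and 1 an NFκB site. Over all regions without an NS peak the shares were 32.9%, 32.2%, 25.8% and 4.71% in the same order. Motif counts at single loci, here and below, rest on few regions and are not read as a trait of the locus.

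A further 5 regions lay 127 kb from the TNF cluster, over DDAH2, CLIC1 and MPIG6B. Together with the TNF cluster they gave 17 regions in the major histocompatibility complex, a gene-dense stretch of immune genes.

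The cluster at chr19:6630778-6678933 had 9 regions over 48.2 kb, from upstream of CD70 to the complement gene C3, with TNFSF14 inside. TNFSF14 (LIGHT) and CD70 are TNF superfamily ligands of activated T cells, and the CD70 TSS was 26.7 kb from the cluster. All 9 regions had a peak in SW rottlerin, 4 in NS rottlerin and 4 in SW DMSO, and 3 were in all of these lists. The region 4.43 kb upstream of the TNFSF14 TSS had folds of 5.48 (SW DMSO), 3.87 (NS rottlerin) and 5.73 (SW rottlerin). The region 16.0 kb downstream of that TSS had 5.57, 4.76 and 5.36. The highest score in the cluster (150) was at chr19:6641671-6642122, with folds of 3.36 in NS rottlerin and 6.28 in SW rottlerin and no SW DMSO peak. AP1 sites were found in 4 of the 9 regions and RUNX sites in 5, against 25.8% and 32.2% of all regions without an NS peak.

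TNFSF8 (CD30 ligand), a further TNF superfamily ligand among the 10 largest clusters, had 7 regions over 35.6 kb at chr9:117685335-117720957. Its most enriched region, a 1840 bp stretch 16.4 kb upstream of the TSS, had folds of 4.35, 6.05 and 6.50 in SW DMSO, NS rottlerin and SW rottlerin. The region at the TNFSF8 start, 0.533 kb downstream of the TSS by its mid-point, had folds of 3.73, 4.13 and 3.79. CD40LG, the ligand by which T cells help B cells, had a cluster of 5 intergenic regions 20.5 kb from its TSS at chrX:135699588-135709828. AP1 sites were present in 4 of these 5 regions, against 25.8% of all regions without an NS peak. Folds of the 5 regions ran from 3.24 to 4.79, and none of the 5 was in all 3 lists.

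CRTAM encodes a receptor of activated cytotoxic T cells, and its locus held 7 regions at chr11:122708881-122734813. By list, 6 of 7 had a peak in SW DMSO, 3 in NS rottlerin and all 7 in SW rottlerin. The region 11.9 kb downstream of the TSS, whose sequence is given above, had folds of 5.10, 3.47 and 6.27 in SW DMSO, NS rottlerin and SW rottlerin. The region 18.3 kb downstream had 4.97, 2.73 and 5.91, and the highest score of the cluster (158). The region at the TSS had folds of 4.08 in SW DMSO and 6.64 in SW rottlerin. In all 3 the SW rottlerin fold was the highest. NFAT sites were present in 5 of the 7 regions, RUNX sites in 5 and AP1 sites in 3. Over all regions without an NS peak the shares were 32.9%, 32.2% and 25.8%. The neighbouring cluster, 88.9 kb away in UBASH3B, an inhibitory phosphatase gene of T-cell receptor signalling, added 6 regions.

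**Figure D3:**
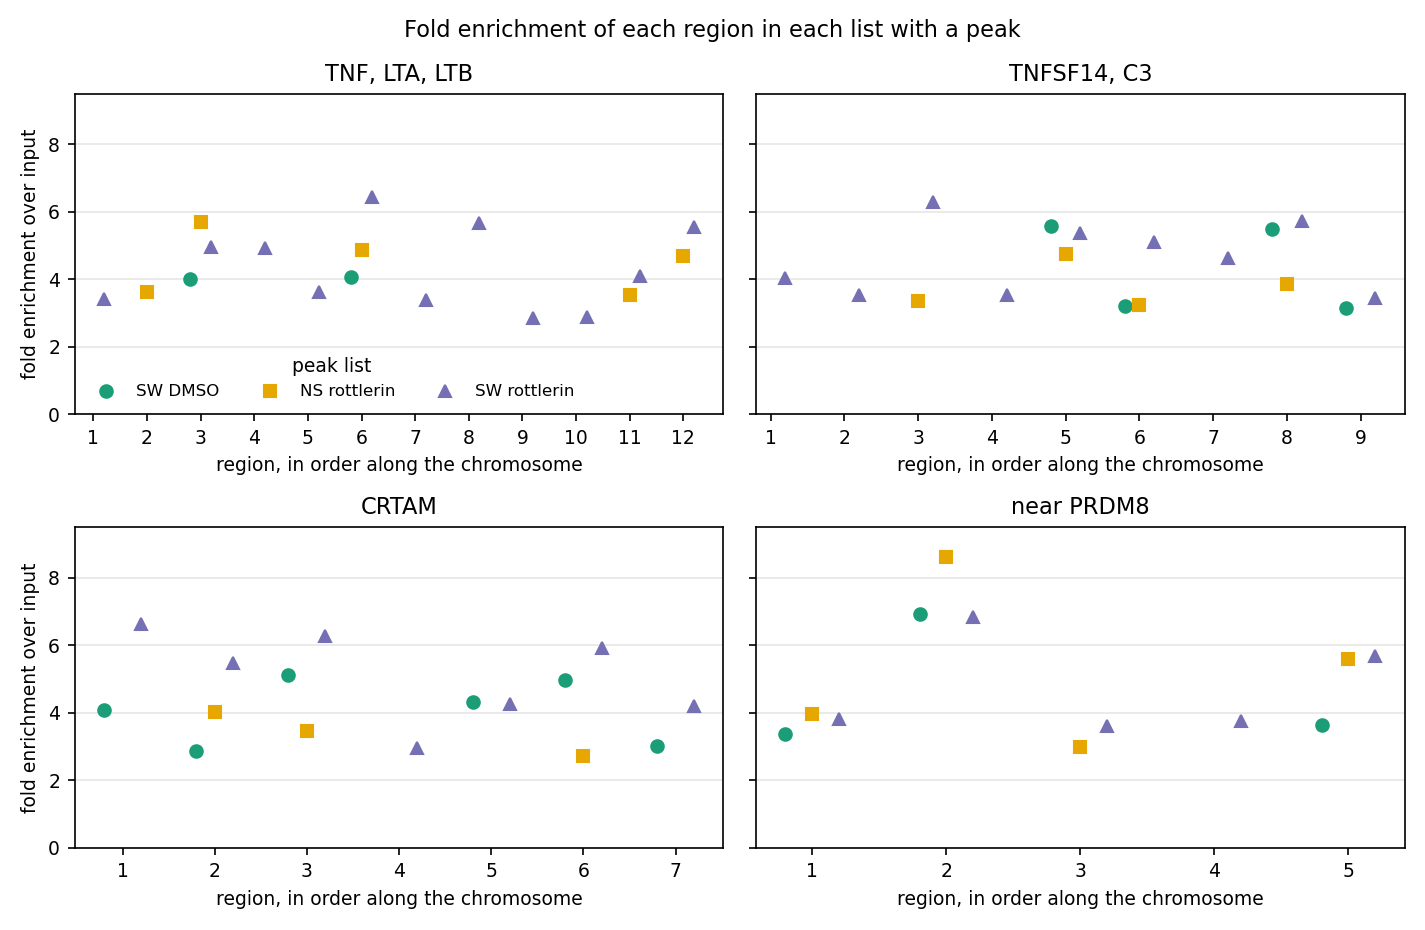
Fold enrichment over total input for each region of 4 clusters (TNF, TNFSF14, CRTAM and the cluster near PRDM8) in genomic order, with 1 point for each list that has a peak and no point where no peak was called. The highest value among the 4 clusters is 8.62, in the NS rottlerin list at the region upstream of ANTXR2, and all points lie between 2.62 and 8.62.

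Loci of transcription factor genes are described next, although most of the listed factor groups had no TSS within 50 kb of a cluster. RUNX1, a T-lineage and leukaemia factor, had 7 intronic regions over 22.6 kb at chr21:36317572-36340204. Of these, 4 had an AP1 site and 5 an NFAT site, against 25.8% and 32.9% of all regions without an NS peak. The pair of RUNX1 regions in all 3 lists had folds of 3.12, 4.42 and 3.06, and of 3.68, 4.94 and 3.77 (SW DMSO, NS rottlerin, SW rottlerin). Both had their highest fold in NS rottlerin. BACH2, a repressor that restrains effector differentiation, had 7 regions at chr6:90958806-91006777 and 2 more clusters upstream, separated by 86.3 kb and 31.3 kb. The BACH2 promoter-proximal region, 0.233 kb downstream of the TSS in the 5′UTR, had folds of 4.17, 3.14 and 3.80, and the region 12.0 kb downstream had 3.93, 3.01 and 4.90. NFKB2, the p100 and p52 NFκB subunit, had 5 regions over 27.2 kb at chr10:104153736-104180932. The region at its TSS was in all 3 lists with folds of 3.79, 3.24 and 3.62, and had 2 NFκB sites in its central 300 bp. The next region, 1.55 kb downstream, had folds of 2.90 in SW DMSO and 3.18 in SW rottlerin.

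The regions with the highest scores of all were outside the loci that the naming rule selected, and were chosen after their values were seen. The highest score, 254, was at chr3:105895551-105895970 in an intron of the lncRNA ENSG00000287421. It lay 307 kb upstream of CBLB, a ubiquitin ligase that limits T-cell activation, in a cluster of 7 regions. Its folds were 5.98 (SW DMSO), 5.25 (NS rottlerin) and 7.73 (SW rottlerin). The next, with a score of 219, was in an intron of SLAMF1, a costimulatory receptor gene, with folds of 4.08 in SW DMSO and 8.23 in SW rottlerin. The region 11.9 kb upstream of TBX21, the T-bet gene of T helper 1 cells, scored 217 with folds of 4.64 and 6.94 in the same lists. At the TBX21 TSS the order differed, with folds of 3.22 in SW DMSO, 4.08 in NS rottlerin and 3.04 in SW rottlerin. A region 6.56 kb upstream of TBC1D7 scored 203, with folds of 4.57, 3.53 and 7.49. All 4 of these regions held an AP1 site and at least 1 NFAT site. Both kinds of site were found in 10.2% of all cluster regions and in 8.66% of all regions without an NS peak. The 4 regions were picked by score and do not stand for the clusters.

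Clusters with the highest share of regions in all 3 lists were at LINC01816 near PCBP1 and at HIVEP3, a zinc finger gene, with 4 of 5 regions each. At LINC01816 (chr2:70351142-70365028) the 4 regions had folds from 3.24 to 5.08. No AP1 site was found in that cluster. At HIVEP3 (chr1:42248951-42277351) the 4 regions had folds from 2.56 to 4.61. The remaining HIVEP3 region lacked an NS rottlerin peak only, and held 2 AP1 sites. The cluster at chr4:81046712-81065173 lay beside ANTXR2, 39.9 kb from the TSS of PRDM8, a transcriptional repressor, and had 3 of 5 regions in all 3 lists. Its region upstream of ANTXR2 had the highest fold of any cluster region, 8.62 in NS rottlerin, with 6.93 in SW DMSO and 6.83 in SW rottlerin. MYH9, the non-muscle myosin heavy chain gene, had 3 of 6 regions in all 3 lists, with folds from 3.30 to 5.00.

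The remaining large clusters were CASC15, with 2 clusters of 9 and 7 regions 35.8 kb apart, ATG14 with TBPL2 and NEK7. CASC15 is a lncRNA gene, and the nearest coding TSSs of its clusters (PRL and SOX4) were 258 kb and 332 kb away. All 16 CASC15 regions had a peak in the SW rottlerin list. ATG14 encodes an autophagy protein, and of its 8 regions 7 were in SW rottlerin, 2 in NS rottlerin and 2 in SW DMSO. NEK7, a kinase that takes part in inflammasome activation, had 8 intronic regions of which 0 had an AP1 site and 3 had an NFAT site. Its most enriched region had folds of 3.67 in SW DMSO and 5.49 in SW rottlerin. The T-cell receptor beta locus, chosen after its values were seen, had the opposite list pattern: all 5 regions at chr7:142490977-142509138 were in the SW DMSO list and 2 in each of the other lists. It was the only cluster in which the SW DMSO list alone had the most regions. Its 3 regions called in SW DMSO alone had folds of 2.83, 4.45 and 2.89.

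How many genes of T-cell activation lay near a cluster? Of 20136 coding genes, 129 had a TSS within 50 kb of a cluster, which was 0.641%. Of 141 genes on lists of T-cell activation and lineage, 10 did (7.09%, 3.898 to 12.6%). These were NFKB2, TNF, LTA, LTB, CD40LG, CD70, CXCR5, DUSP6, BACH2 and PRDM8, and TNF, LTA and LTB share a cluster. The lists were chosen with earlier results of these data known, so this share is not independent evidence. By list, the counts were 3 of 15 cytokines, 3 of 19 activation and costimulation receptors, 2 of 8 repressors and inhibitors, 1 of 10 NFκB genes and 1 of 10 genes of MAP kinase feedback. The counts were 0 of 10 AP1 genes, 0 of 6 NFAT genes, 0 of 8 EGR and NR4A genes, 0 of 10 chemokines, 0 of 18 T-cell receptor signalling genes, 0 of 16 T-lineage and leukaemia factors, 0 of 8 survival genes and 0 of 3 microRNA hosts. RUNX1 is on the list of T-lineage and leukaemia factors and contained a cluster, but was not counted. A single TSS was used for each gene, at the outer end of its annotation, and for RUNX1 it lay 1037 kb from the cluster. Distances to the starts of other RUNX1 transcripts were not measured, so an internal promoter may lie nearer. The count was 0 of 86 (0 to 4.28%) for ribosomal protein genes, which every cell uses. The interval of each list with a count of 0 contains the 0.641% of all coding genes. These counts therefore place no list below that share. CXCR5, the chemokine receptor of follicular helper T cells, was 29.6 kb from a cluster in BCL9L and UPK2 with 0 of 5 regions in the SW DMSO list. DUSP6, a phosphatase that inactivates ERK, was 5.88 kb from a cluster of 5 regions with folds from 2.90 to 5.34, and none of these was in the SW DMSO list.

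Position relative to genes was not used by the rule. Coding genes were overlapped by 65 clusters, 49 of which overlapped 1 gene and 16 more than 1. Another 27 overlapped none, and 19 of these overlapped a non-coding or T-cell receptor gene. A coding TSS lay inside 31 clusters, and 23 clusters were over 100 kb from any. By mid-point, 64.0% of the cluster regions were in introns and 12.8% were intergenic, against 60.8% and 16.7% of all regions without an NS peak. The sum of both was 76.8% (73.0 to 80.2%) against 77.5%, so intron and intergenic regions together did not stand apart. The median distance to the nearest coding TSS was 29.6 kb in the clusters and 36.4 kb over all regions without an NS peak, while for the 10841 regions called in every list it was 2.59 kb. In chains of 3 and 4 regions it was 28.3 kb and 27.3 kb, so the shorter distance was not particular to the clusters. Within 1 kb of a coding TSS lay 6.42% (4.63 to 8.83%) of cluster regions, against 8.97% of all regions without an NS peak. The interval ended just below that share. Regions of a cluster share a locus, so it is too narrow to place the clusters below it. Chains of 3 and 4 regions had shares of 6.65% and 5.61%, so this too was not particular to the clusters.

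Sequence was not used by the rule either. A region was called CpG-island-like when its central 300 bp had over 50% GC and an observed to expected CpG ratio over 0.6. This held for 6.79% (4.95 to 9.26%) of cluster regions, 10.6% of all regions lacking an NS peak and 50.2% of those called in every list, and the interval for clusters was below both. Median GC was nevertheless close, at 44.7% in clusters and 44.3% over all regions without an NS peak. An AP1 site was present in 25.3% (21.8 to 29.2%) of cluster regions, against 25.8% of all regions lacking an NS peak and 9.68% of those called in every list. NFAT sites were found in 35.7% (31.7 to 39.8%) against 32.9%, RUNX sites (TGTGGT) in 34.3% (30.4 to 38.5%) against 32.2%, and GATA sites (AGATAA) in 27.0% (23.4 to 30.9%) against 24.8%. ETS sites (CGGAAGT or AGGAAGT) were found in 19.4% (16.3 to 23.02%) against 20.01%, and NFκB sites in 5.85% (4.15 to 8.18%) against 4.71%. The interval of each of these motifs contains the background share. CTCF sites (1.89%, 1.03 to 3.44%, against 3.97%) and EGR sites (GTGGGCG, 2.26%, 1.30 to 3.92%, against 4.57%) had intervals below it. Regions of a cluster share a locus and are not independent, so these intervals are too narrow.

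**Figure D4:**
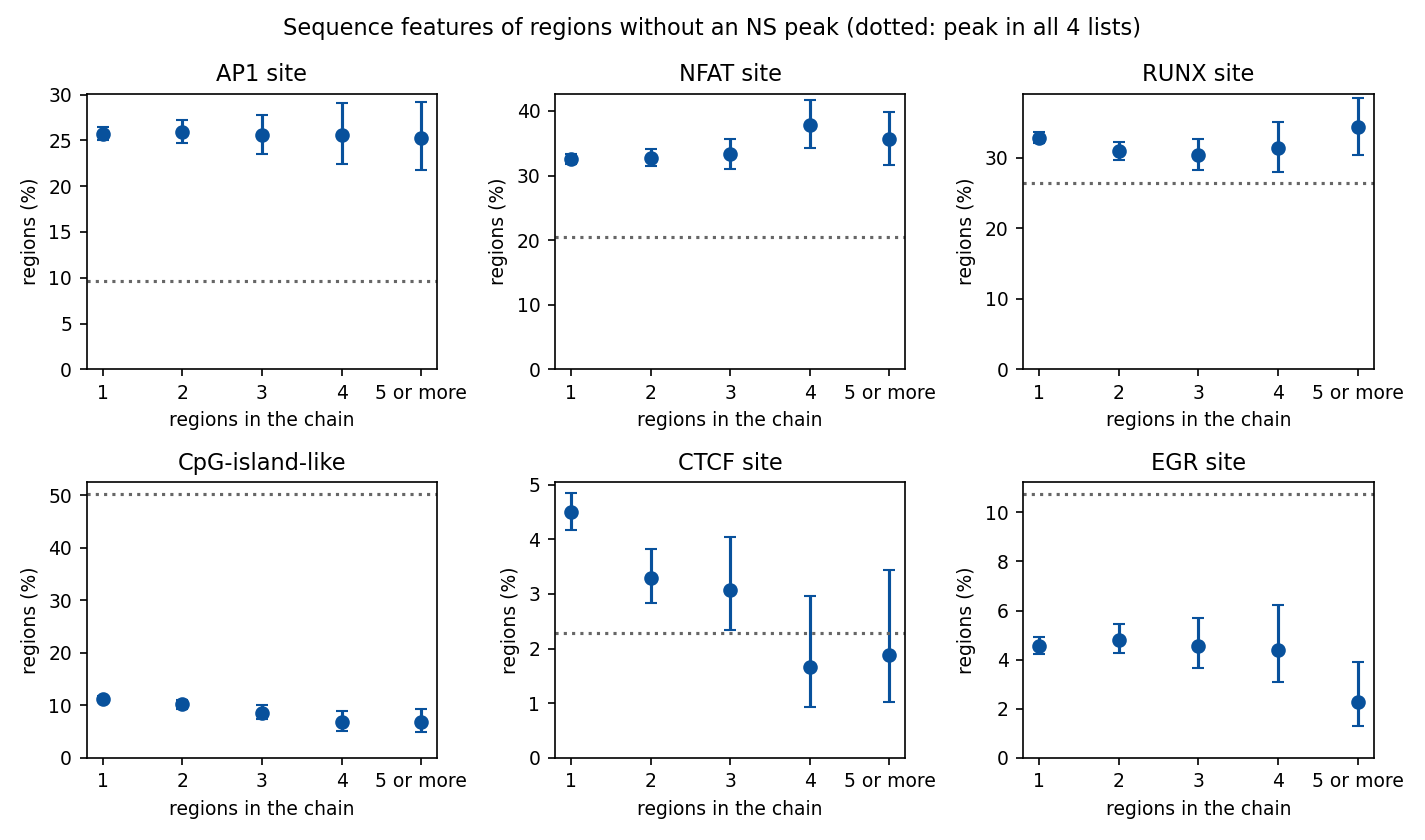
Percentage of regions without an NS peak that have an AP1, NFAT, RUNX, CTCF or EGR site or are CpG-island-like, by the number of regions in their chain, with 95% Wilson intervals as bars and the share among regions called in every list as a dotted line. The AP1 share lies between 25.3% and 26.0% at every chain length, whereas the CpG-island-like share runs from 11.3% for single regions to 6.79% in clusters.

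Over chain lengths of 1, 2, 3, 4 and at least 5 regions, CpG-island-like shares were 11.3%, 10.2%, 8.56%, 6.82% and 6.79%. The CTCF shares were 4.50%, 3.29%, 3.08%, 1.67% and 1.89% over the same lengths. EGR shares were between 4.39% and 4.82% for chains of 1 to 4 regions and 2.26% in clusters. Of the 92 clusters, 72 had a region with an AP1 site, 86 had one with an NFAT site and 68 had both kinds. A cluster has at least 5 regions, so such counts rise with its size. The shares of regions were near those of all regions without an NS peak, at 25.3% against 25.8% for AP1 and 35.7% against 32.9% for NFAT. These counts are therefore not read as a trait of the clusters. At least 3 regions with an AP1 site were present in 14 clusters. The maximum was 4, in 5 clusters: TNFSF14, ATG14, RUNX1, the chromosome 3 cluster upstream of CBLB, and CD40LG.

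Motif content differed with the lists that had a peak. AP1 sites were present in 17.3% (13.3 to 22.1%) of the 278 cluster regions in 1 list, 32.5% (25.7 to 40.1%) of the 160 in 2 lists and 37.0% (27.8 to 47.2%) of the 92 in 3 lists. Over all 21783 regions lacking an NS peak the shares were 22.3%, 27.8% and 36.7%. Of the 53 cluster regions in the NS rottlerin list alone, 5.66% (1.94 to 15.4%) had an AP1 site, 16.98% (9.20 to 29.2%) an NFAT site and 35.8% (24.3 to 49.3%) an ETS site. Of the 206 in the SW rottlerin list alone, 19.4% (14.6 to 25.4%) had an AP1 site, 43.7% (37.1 to 50.5%) an NFAT site and 15.0% (10.8 to 20.6%) an ETS site. The intervals of these 2 groups do not overlap for NFAT and ETS, and they overlap for AP1. They are too narrow, because regions of a cluster share a locus, and each list is 1 library. The difference between the 2 groups was therefore not tested. Over all regions without an NS peak the same order held, with AP1 at 14.8% and 22.7%, NFAT at 19.4% and 43.8% and ETS at 28.7% and 16.3%. The interval of each cluster group contained the matching share. For the 19 regions in SW DMSO alone the intervals were too wide to place them.

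**Figure D5:**
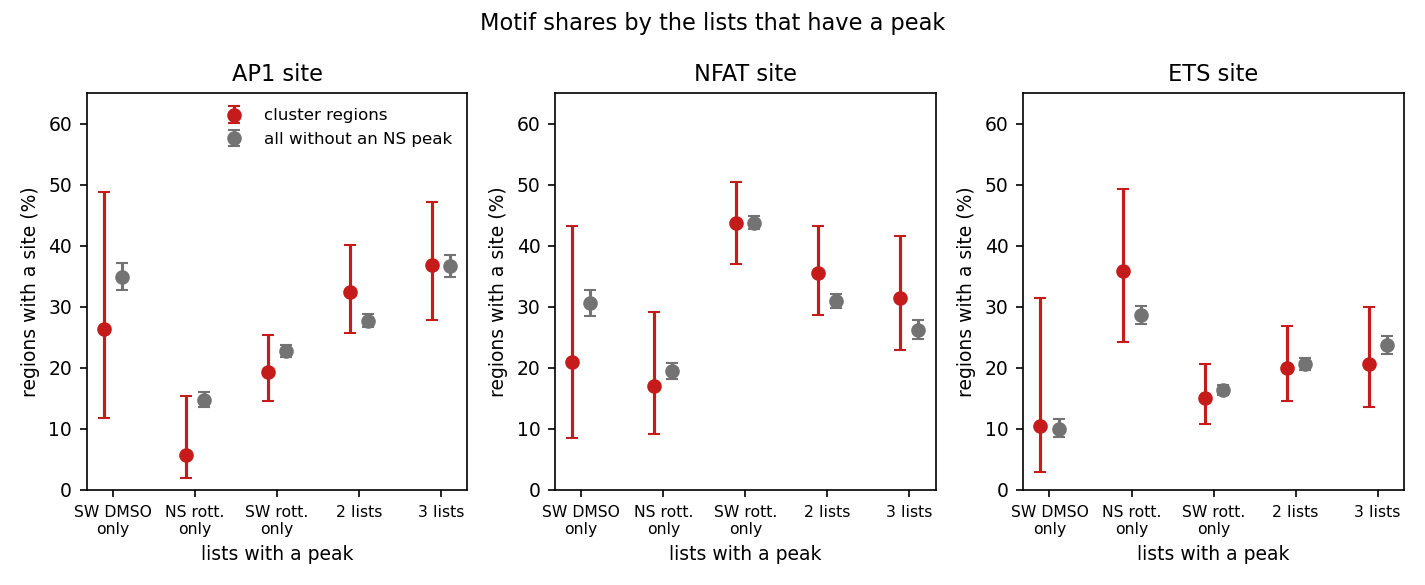
Percentage of regions with an AP1, NFAT or ETS site by the lists that have a peak, for cluster regions (red) and for all regions without an NS peak (grey), with 95% Wilson intervals as bars. AP1 is lowest in cluster regions called in the NS rottlerin list alone (5.66%), NFAT is highest in those called in the SW rottlerin list alone (43.7%) and ETS in those called in the NS rottlerin list alone (35.8%). The matching shares over all regions without an NS peak are 14.8%, 43.8% and 28.7%, inside the intervals of the cluster regions.

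Inside the cluster spans lay 71 regions that did have an NS peak. They were in 40 clusters, while 52 clusters had none, and the most was 5, in SPTBN1, a spectrin gene. Of the 71, 46 (64.8%, 53.2 to 74.9%) had a peak in all 4 lists, against 57.3% of all regions with an NS peak. The rule did not use these 46 as members, and their fold enrichment is given by list as a description. The same lists chose the spans that hold them, so the comparison is not independent of the rule. Their median fold in NS DMSO was 3.94, against 4.44 over all 10841 regions in 4 lists. The part of this lower NS DMSO value in the ratios was not tested. The median log2 ratio of the SW rottlerin fold to the NS DMSO fold was 0.25 (95% order-statistic interval 0.08 to 0.37), against 0.11 over all 10841 regions in 4 lists. Of the 46, 35 (76.1%) were higher in SW rottlerin than in NS DMSO, against 67.1% of all 10841. For NS rottlerin the ratio was 0.09 (−0.05 to 0.27) against 0.05, and for SW DMSO 0.05 (−0.01 to 0.18) against −0.02, and both intervals contained 0. The interval for SW rottlerin contained the value over all 10841 regions. With only the higher-scoring 50% of each list, 1 such region was left and its ratios were −0.25 for SW rottlerin, −0.055 for NS rottlerin and −0.37 for SW DMSO.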

How the data were processed

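FAIRE-seq of Jurkat E6-1 cells was measured in 9 samples, of which 4 had a peak list, and the other 5 (total input included) were not analysed here. Per the labels and the study's methods, the authors used cutadapt against adapter sequence, Bowtie2 for alignment to hg19 and Picard for the removal of duplicates, and then called broad peaks against total input with MACS2 at a q-value of 0.05 (versions are not given in the sources used here). The deposited lists hold for each peak a score, the fold enrichment over input, which is a ratio, and −log10 p- and −log10 q-values, all as the authors' peak caller wrote them, and the score was checked and equals 10 times the −log10 q-value, cut to a whole number, for nearly all peaks. No read count is given, so depth is unknown, and a region without a peak in a list has no value in it.

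Peaks that overlapped or touched were merged, and each mid-point was given the first category that fitted (the UTRs, 5′ before 3′, then exon, intron, promoter within 1 kb, upstream within 10 kb, and last intergenic sequence) from GENCODE release 44 lifted to GRCh37, in which all 162 listed gene symbols were found. Motifs were searched on both strands in the central 300 bp, overlaps included. In Python 3.11.15, pandas 2.3.3, scipy 1.17.1 and pysam 0.24.0 were used. Planted chains, list counts and motif sites were tested on simulated data, and 100% were recovered. With 1 library a list there was no test, and 95% Wilson intervals were given. Values were recomputed with other chain distances, minimum sizes, peak subsets, lists left out, motif windows and TSS distances.

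The members and lists were chosen with earlier results of these data known. Loci named were the 10 clusters with most regions, clusters within 50 kb of the TSS of a listed gene, and the 5 with the highest share of regions in all 3 other lists. Other loci were chosen after their values were seen, and this is said there or holds for the clusters of the sequence set, the clusters overlapping others and the extremes of span.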

Additional observations from a re-analysis of the deposited data

How the results depend on the processing

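Over 11 results, 85 values were computed under alternatives: 46 stayed within 1.5 times (counts) or the interval of the reported value, 36 moved and 3 reversed. The cause was not tested. The reported values were 530 regions, 92 clusters and 2.43%. A chain distance of 10 kb gave 322 regions, 57 clusters and 1.48%, and 20 kb gave 1327, 222 and 6.09%. Chains of at least 4 gave 1190 regions, 257 clusters and 5.46%, and of at least 6 gave 270, 40 and 1.24%, with 4.07% CpG-island-like regions and 5 listed genes. Without NS peaks within 1 kb the share was 2.07%, and without the NS rottlerin list it was 1.96%. Without the SW rottlerin list there were 131 regions in 24 clusters (0.907%). With the same number of peaks in each list there were 105 regions in 20 clusters (0.780%), with 22.9% in all 3 other lists, 67.6% in introns or intergenic sequence, 4.76% CpG-island-like, 4 listed genes and a median log2 ratio of 0.33 for NS rottlerin in the regions open in all lists. The higher-scoring 50% of each list gave 48 regions in 9 clusters (0.465%), with 4.17% in all 3 other lists, 4.17% CpG-island-like and 3 listed genes, and the median log2 ratios became −0.37 (SW DMSO), −0.055 (NS rottlerin) and −0.25 (SW rottlerin), over the 1 region left. The AP1 share was 31.9% in the central 500 bp, and 19.2% with TGACTCA or TGAGTCA only, an alternative chosen after seeing the data. A TSS inside the cluster was found for 5 listed genes.

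No paired analysis was possible because each group has 1 library. Peak lists have no values below the calling threshold, and how far below it the uncalled regions lay could not be measured. The count of clusters rested on the longest list, and depth per list is unknown.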

Other observations

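The clusters given here were chosen after their values were seen and stand for no group of genes. TGFBR2, a receptor gene of transforming growth factor β, had 7 regions over 36.0 kb, all of them in the SW rottlerin list. Its promoter region was in all 3 lists with folds of 2.85 (SW DMSO), 3.67 (NS rottlerin) and 3.71 (SW rottlerin). SMAD3, which encodes a transducer of the same receptor, had 7 regions over 19.2 kb, none in all 3 lists. PMAIP1 (NOXA), a proapoptotic gene, had 6 regions over 19.0 kb, and its promoter region had folds of 4.67, 4.72 and 5.18 in SW DMSO, NS rottlerin and SW rottlerin. MIR222HG on chromosome X, a microRNA host gene, had 7 regions over 25.8 kb. The last of these in genomic order had 4 AP1 sites in its central 300 bp, the most of any cluster region, and a fold of 3.97 in the SW rottlerin list only.

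ZBTB16 (PLZF), a transcription factor gene of innate-like T cells, had 5 regions over 23.9 kb, all in the SW rottlerin list. The region 7.16 kb downstream of its TSS had folds of 3.04 in SW DMSO and 5.96 in SW rottlerin. Upstream of CD44, an adhesion receptor gene, the region 98.5 kb from the TSS had folds of 5.17 in SW DMSO and 7.33 in SW rottlerin, and the region 71.7 kb from it had 3.55, 5.76 and 4.49 in SW DMSO, NS rottlerin and SW rottlerin. Between BCL6 and LPP lay a pair of clusters 45.0 kb apart with 10 regions in all, none of them in all 3 lists.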
